A study of Oryza sativa with 8 samples.

Results

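Os3bglu8, Os1bglu4 and Os5bglu22 are genes of the beta-glucosidases of rice. They were chosen by name, through every array probe that lies in only that gene in the RefSeq annotation, and they are 3 of the 14661 genes tied to such a probe and 3 of the 22 genes of their family that have one. They had been picked with their differences from the maintainer line in view, so those differences are given below as a description and without a test. The series holds 8 rice gene arrays, which stand for 4 lines grown in the same field, each with 2 biological replicates. The male sterile lines were D62-A/MB, ZS97-A/MB and XQZ-A/MB (D62A, ZhenShan97A and XQZ-A in the array labels), which carry cytoplasm of the D type, the WA type and the DA type in the nucleus of Meixiang B (MB). MB is the fertile maintainer line, and it was the recurrent parent in the repeated backcrosses that made the cytoplasmic male sterile (CMS) lines. Microsatellite markers had shown that a part of the nuclear genome of the CMS lines was not replaced, so the lines differ from MB in more than their cytoplasm. The labels name young panicles with uninucleate microspores as the tissue, while the methods name anthers. Arrays are called here by their labels. The study's own table of fold changes attaches the values of the arrays labelled D62-A/MB to the name XQZ-A/MB and the reverse, so what is said of one of these lines may belong to the other.

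Beta-glucosidases of glycoside hydrolase family 1 take the last glucose off a beta-glucoside or a short chain of sugars. In grasses they act on oligosaccharides released from the cell wall, free plant hormones and monolignols from their stored glucose conjugates, and activate defence compounds. In the anther, sugars and wall oligosaccharides are turned over while callose around the tetrads is removed and the pollen wall is laid down. Os3bglu8 is a close relative of Os3bglu7, an enzyme known to split short chains of cell wall glucan, and Os3bglu7 directly precedes it on the chromosome. Os1bglu4 is known as a family member without a signal for secretion, which sets it apart from most others. Os5bglu22 lies 3 coding genes away from Os5bglu21 and on the same chromosome as Os5bglu19 and Os5bglu20. Genes were named and ordered by the RefSeq annotation of a japonica assembly. The build of the probe positions is not given in the sources used here, so no coordinates are stated.

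The deposited values are linear intensities, and values below 16 were set to that floor before log2 transformation. Array medians ran between 7.65 and 8.15 in replicate 1 and between 19.2 and 20.6 in replicate 2, and 42.5% to 65.2% of the probes of an array lay at or below the floor. Each comparison was therefore read within a replicate number as well as between the line means. All 3 comparisons with MB share the same 2 MB arrays. Of the anther and tapetum markers, 7 of 17 had a probe, 3 of them (OsC6, OsC4 and GAMYB) lay above the floor on all arrays, and UDT1 lay below it on all arrays. Their summed intensity was 342 and 595 in D62-A/MB, 300 and 697 in ZS97-A/MB and 253 and 376 in XQZ-A/MB, against 1285 and 3640 in MB. OsC6 (20.8 to 123 in the CMS lines, against 415 and 2063 in MB) and OsC4 (33.7 to 260 in the CMS lines, against 661 and 1263 in MB) carried this shift, while GAMYB had 150 to 276 in the CMS lines, against 168 and 188 in MB. All 6 markers of the lemma, palea and glume had a probe. Their sum was 779 to 1112 in replicate 1 and 1055 to 1702 in replicate 2 of the CMS lines, on both sides of the 1057 and 1230 in MB. For carpel and ovule, 2 of 5 markers had a probe. Their sum was 25.2 to 38.6 in replicate 1 and 55.9 to 72.6 in replicate 2 of the CMS lines, against 46.9 and 100.1 in MB. For green tissue, 3 of 4 had one, with 82.8 to 85.7 and 261 to 292 in the CMS lines, against 104 and 344 in MB. In both of these lists, every CMS array had a lower sum than the MB array of its replicate number. The part of these shifts in the results below was not tested, and in RNA of a whole organ fewer cells of a type and less RNA per cell cannot be told apart.

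Os3bglu8 (LOC4333842) was lower in every CMS line than in MB. The intensity of its only probe was 28.6 and 35.9 in D62-A/MB, 17.1 and 23.0 in ZS97-A/MB and 14.6 and 17.7 in XQZ-A/MB, against 85.4 and 132 in MB (replicates 1 and 2). All 6 CMS arrays lay below both MB arrays, and only XQZ-A/MB replicate 1 was under the floor. The line means were 32.2 ± 5.18 for D62-A/MB, 20.1 ± 4.15 for ZS97-A/MB, 16.1 ± 2.22 for XQZ-A/MB and 109 ± 33.1 for MB (SD, n = 2 each). On the log2 scale the difference from MB was -1.73 for D62-A/MB, -2.42 for ZS97-A/MB and -2.66 for XQZ-A/MB (SE 0.15 each), or 3.32-fold, 5.35-fold and, with 1 of its arrays set to the floor, at least 6.32-fold lower. The mean of the CMS lines differed from MB by -2.27 (SE 0.13), which is at least 4.83-fold lower.

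The order of the lines for Os3bglu8 was the same in both replicates, with MB highest, then D62-A/MB, ZS97-A/MB and XQZ-A/MB. Within a replicate number the log2 difference from MB was -1.58 and -1.88 in D62-A/MB, -2.32 and -2.52 in ZS97-A/MB and -2.42 and -2.90 in XQZ-A/MB. The intensities of neighbouring lines in this order did not overlap, except those of ZS97-A/MB and XQZ-A/MB. The rank of the probe on its array gave the same order of the lines in both replicates without any scaling. Across replicates, however, the ranks of D62-A/MB and ZS97-A/MB overlapped, unlike their intensities. Of all probes of an array, 74.6% and 65.2% read lower than the Os3bglu8 probe in D62-A/MB, 66.2% and 55.0% in ZS97-A/MB and 63.4% and 45.6% in XQZ-A/MB, against 88.6% and 89.6% in MB.

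Os1bglu4 (LOC4325106) was measured above the floor in MB only. Its probe had 13.7 and 10.5 in D62-A/MB, 13.2 and 12.4 in ZS97-A/MB and 8.93 and 8.95 in XQZ-A/MB, against 51.8 and 75.5 in MB. All 6 CMS arrays lay under the floor and below both MB arrays. The mean was 12.1 ± 2.31 for D62-A/MB, 12.8 ± 0.561 for ZS97-A/MB, 8.94 ± 0.009 for XQZ-A/MB and 63.7 ± 16.8 for MB (SD, n = 2 each). Set against the floor, Os1bglu4 was at least 3.91-fold lower in each CMS line than in MB, a log2 difference of -1.97 (SE 0.18 per line), with -1.70 in replicate 1 and -2.24 in replicate 2. As the bound is the same number in all 3 lines, no order among them can be read from it. The SE holds no spread of the CMS lines, as all their values were set to the floor. Without the floor the log2 difference from MB was -2.38 for D62-A/MB, -2.29 for ZS97-A/MB and -2.81 for XQZ-A/MB, values that rest on intensities too low to be ordered. The probe read higher than 62.3% and 30.1% of the probes of the array in D62-A/MB, 61.7% and 36.9% in ZS97-A/MB and 52.4% and 23.2% in XQZ-A/MB, against 82.5% and 81.3% in MB.

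Os5bglu22 (LOC4338560) ran the other way and in 1 line. The brighter of its probes had 8.35 and 20.7 in D62-A/MB, 11.3 and 14.6 in ZS97-A/MB and 33.5 and 41.0 in XQZ-A/MB, against 8.48 and 14.8 in MB. Both arrays labelled XQZ-A/MB lay above the other 6, and of those 6 only D62-A/MB replicate 2 was over the floor. The mean was 14.5 ± 8.74 for D62-A/MB, 12.9 ± 2.36 for ZS97-A/MB, 37.2 ± 5.32 for XQZ-A/MB and 11.6 ± 4.43 for MB (SD, n = 2 each), and the lines other than XQZ-A/MB could not be ordered. Os5bglu22 was at least 2.32-fold higher in XQZ-A/MB than in MB, a log2 difference of 1.21 (SE 0.15), with 1.07 and 1.36 within the replicate numbers. The difference from MB was 0.19 in D62-A/MB and 0 in ZS97-A/MB, where all arrays on both sides lay at the floor.

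The second probe of Os5bglu22 could not show a difference. It read 2.07 to 5.59 over all 8 arrays, under the floor throughout. With the mean of both probes the log2 difference of XQZ-A/MB from MB was 0.61, a value that follows from setting the second probe to the floor. The value of Os5bglu22 therefore rests on 1 probe. That probe read higher than 51.4% and 51.0% of the probes of its array in D62-A/MB, 58.7% and 41.9% in ZS97-A/MB and 77.2% and 68.4% in XQZ-A/MB, against 51.9% and 40.2% in MB. The arrays concerned are those labelled XQZ-A/MB, one of the lines whose names are exchanged in the study's table.

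**Figure D1:**
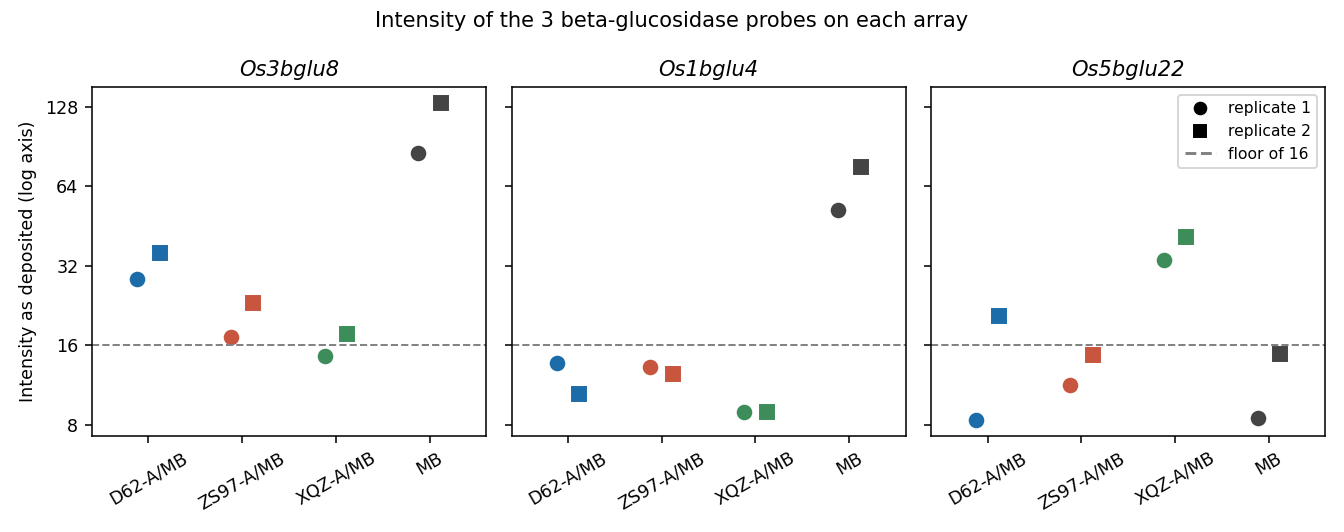
Intensity as deposited (log axis) of the probe of Os3bglu8, Os1bglu4 and Os5bglu22 on each of the 8 arrays, with replicate 1 as a circle, replicate 2 as a square and the floor of 16 as a dashed line. The 6 CMS arrays lie below both MB arrays for Os3bglu8 and Os1bglu4, and both XQZ-A/MB arrays lie above the other 6 for Os5bglu22.

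**Figure D2:**
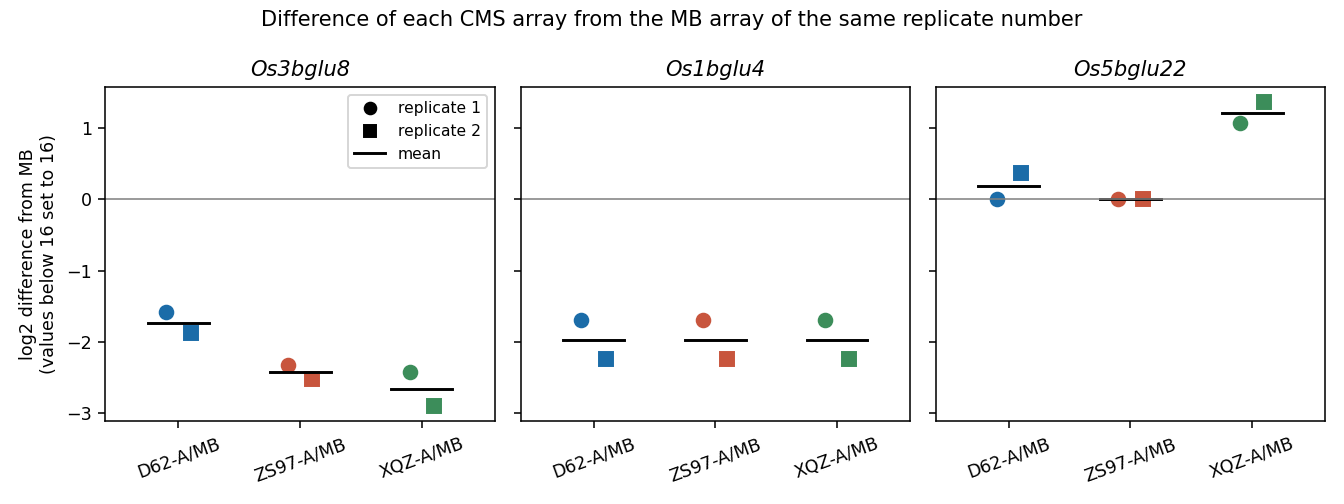
The log2 difference of each CMS array from the MB array of the same replicate number, with intensities below 16 set to 16 (circle for replicate 1, square for replicate 2, bar for their mean). For Os3bglu8 the values run from -1.58 to -2.90, for Os1bglu4 all lines share the bounds -1.70 and -2.24, and for Os5bglu22 only XQZ-A/MB exceeds 1 in both replicates.

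Os3bglu8 was also compared among the CMS lines. The gene had been chosen on its differences from MB, but the same CMS arrays enter here and their values were known, so these p-values are not independent of the choice. With limma and the replicate number as a block, the log2 difference of D62-A/MB from XQZ-A/MB was at least 0.93, as 1 XQZ-A/MB array was set to the floor (95% CI of the fit 0.56 to 1.29, adjusted p = 0.0907), with D62-A/MB higher in both replicates. That of D62-A/MB from ZS97-A/MB was 0.69 (95% CI 0.33 to 1.05, adjusted p = 0.137), and that of ZS97-A/MB from XQZ-A/MB was at least 0.24 (95% CI -0.12 to 0.60, adjusted p = 0.386). In the comparisons with XQZ-A/MB, the interval takes the floor value as measured, so its upper limit may be too low. None of the 3 comparisons passed the threshold, an adjusted p under 0.01 and at least a 2-fold change. By limma, 0 of 20416 probes passed it between D62-A/MB and XQZ-A/MB and 0 between D62-A/MB and ZS97-A/MB (0.0% in each direction), beside 2786 and 2755 probes with an unadjusted p under 0.05, and the methods' t-test also called 0. Between ZS97-A/MB and XQZ-A/MB, 0.0343% of the probes were called lower and 0.196% higher. For Os1bglu4 all CMS arrays lay under the floor, so a difference among the CMS lines was not measurable. For Os5bglu22, given without a test, XQZ-A/MB was at least 2.32-fold higher than ZS97-A/MB and at least 2.04-fold higher than D62-A/MB.

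The annotation names 31 beta-glucosidase genes of this family, of which 22 had a probe and 11 were tested, a gene being tested where its brightest probe was among the 20416 probes with the higher mean. When the CMS lines were averaged and set against MB, limma called 2 of the 11 lower and 0 higher, where 1.43% of all tested probes were called lower and 0.372% higher. The 2 are Os3bglu8 and Os1bglu4, which had been chosen on this comparison, so the count is no test of them and nothing is read from it. Limma called 0 of the 11 lower without the replicate block. With the block it also called 0 lower without ZS97-A/MB replicate 1, ZS97-A/MB replicate 2, XQZ-A/MB replicate 2 or MB replicate 2, and 1 without XQZ-A/MB replicate 1. The median log2 difference was -0.25 over the 11 genes, but these include the 3 chosen ones, so nothing is read from it. Over the 8 that remain without Os3bglu8, Os1bglu4 and Os5bglu22 it was -0.18, against 0.01 over all tested probes. Of these 8 genes, 5 had a negative and 3 a positive difference. None of the 8 was called by limma or by the methods' t-test, and 3 had an unadjusted p under 0.05 in limma, as did 5433 of all 20416 tested probes. None of the 8 was called between CMS lines or in a single CMS line against MB. There, the share of all tested probes called lower was 0.0294% for D62-A/MB, 0.779% for ZS97-A/MB and 1.75% for XQZ-A/MB, and the share called higher was 0.0%, 0.852% and 0.309% in the same order.

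Os4bglu16, a homologue of the enzymes that free monolignols for lignin, came nearest to a call among these 8. Its probe had 19.1 and 33.3 in D62-A/MB, 31.6 and 32.6 in ZS97-A/MB and 22.6 and 27.5 in XQZ-A/MB, against 75.0 and 62.3 in MB. All 6 CMS arrays lay below both MB arrays and all 8 above the floor. The mean of the CMS lines differed from MB by -1.33 (SE 0.20, adjusted p = 0.0109), just outside the threshold. By line the log2 difference was -1.44 in D62-A/MB (adjusted p = 0.0329), -1.09 in ZS97-A/MB (adjusted p = 0.0334) and -1.46 in XQZ-A/MB (adjusted p = 0.0161). The adjusted p of the mean ran between 0.00353 and 0.519 over the alternative settings, and Os4bglu16 was called without D62-A/MB replicate 1 (adjusted p = 0.00643) and without D62-A/MB replicate 2 (adjusted p = 0.00353).

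Os7bglu26 also had all CMS arrays below MB, by a smaller margin. It had 11.5 and 21.4 in D62-A/MB, 19.4 and 15.7 in ZS97-A/MB and 24.5 and 24.5 in XQZ-A/MB, against 31.1 and 26.8 in MB, with a log2 difference of -0.53 in the mean of the CMS lines (SE 0.15, adjusted p = 0.0762). Together with Os4bglu16, it makes 2 of the 8 tested genes other than Os3bglu8, Os1bglu4 and Os5bglu22 in which every CMS array lay below both MB arrays. Over all tested probes this held for 3.78%. With Os3bglu8 and Os1bglu4 it held for 4 of the 11 tested genes. Those 2 were chosen on their differences from MB, so nothing is read from that count. All CMS arrays lay above both MB arrays in 0 of the 8 others and in 6.05% of all tested probes. Both XQZ-A/MB arrays lay above the other 6, as for Os5bglu22, in 1.46% of the tested probes.

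The other 6 tested genes had CMS arrays on both sides of an MB array. Os8bglu27 had 18.3 and 48.5 in D62-A/MB, 23.3 and 19.0 in ZS97-A/MB and 15.3 and 38.0 in XQZ-A/MB, against 46.3 and 56.3 in MB (-1.04, SE 0.32, adjusted p = 0.0898). Its replicates differed more than those of Os3bglu8. Within the replicate numbers the differences were -1.34 and -0.22 in D62-A/MB, -0.99 and -1.57 in ZS97-A/MB and -1.53 and -0.57 in XQZ-A/MB. The -1.53 is a bound, as its CMS array was set to the floor. Os10bglu34 differed by -0.25 (SE 0.28, adjusted p = 0.640). Its sign turned with the replicate number in D62-A/MB, where it was -1.03 and 0.56, and in ZS97-A/MB, where it was -0.62 and 0.59. In XQZ-A/MB it was -1.03 and 0. Both values of -1.03 are bounds, as their CMS arrays were set to the floor (-1.58 in D62-A/MB and -2.69 in XQZ-A/MB without it). The 0 comes from arrays of XQZ-A/MB and MB that both lay under the floor. Os4bglu9, Os4bglu10 and Os4bglu13 lie close together on the chromosome, and their log2 differences were 0.19 (SE 0.21, adjusted p = 0.640), -0.10 (SE 0.12, adjusted p = 0.680) and 0.33 (SE 0.17, adjusted p = 0.270). The brighter probe of Os4bglu9 had 172 and 379 in D62-A/MB, 193 and 229 in ZS97-A/MB and 295 and 520 in XQZ-A/MB, against 235 and 248 in MB. On this probe the XQZ-A/MB arrays were the highest of their replicate number. Its log2 difference of ZS97-A/MB from XQZ-A/MB was -0.90 (SE 0.26, adjusted p = 0.0862). The second probe of Os4bglu9 had 43.1 and 82.3 in D62-A/MB, 65.7 and 73.9 in ZS97-A/MB and 86.8 and 153 in XQZ-A/MB, against 88.8 and 48.0 in MB. There, MB was highest in replicate 1. Os3bglu6, an enzyme that splits glucose conjugates of gibberellin and abscisic acid, differed by 0.12 (SE 0.13, adjusted p = 0.647), and 4 of its 8 arrays lay under the floor.

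**Figure D3:**
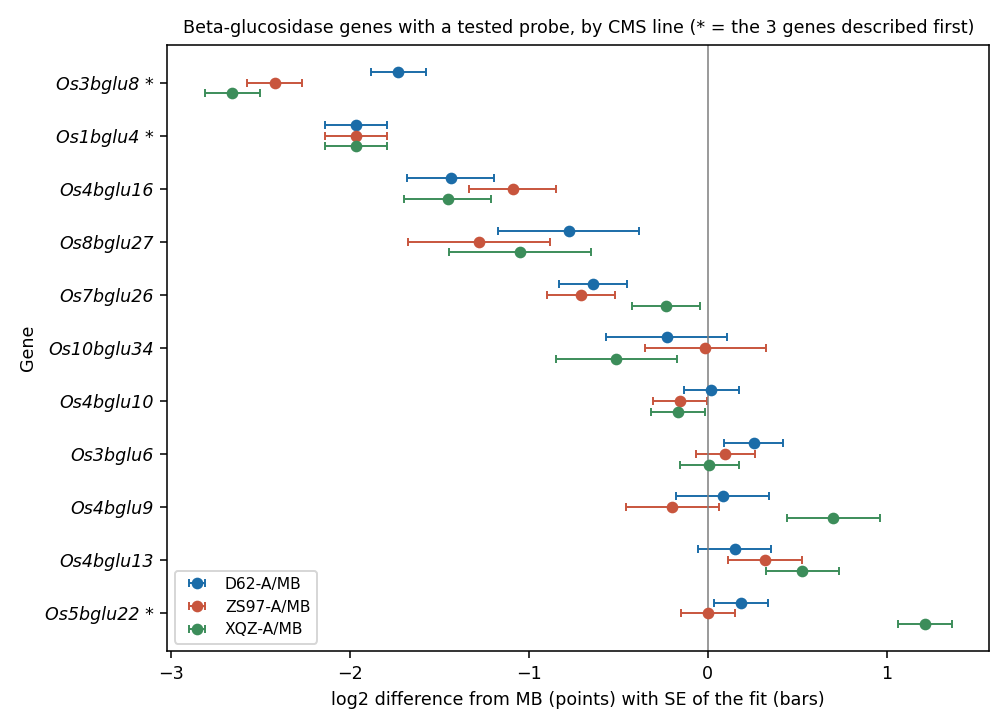
The log2 difference from MB of D62-A/MB, ZS97-A/MB and XQZ-A/MB for the 11 beta-glucosidase genes with a tested probe (points, with the SE of the limma fit as bars), ordered by the mean of the CMS lines and with Os3bglu8, Os1bglu4 and Os5bglu22 starred. Os3bglu8 is the only gene with lines below -2, and Os4bglu16 lies between -1.46 and -1.09 in all 3 lines. Os5bglu22 exceeds 1 in XQZ-A/MB only. The values of Os1bglu4 are bounds, and its bars hold no spread of the CMS lines.

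The other 11 genes of the family with a probe were not tested. Of these, 9 (Os1bglu2, Os1bglu5, Os4bglu14, Os4bglu18, Os5bglu19, Os5bglu20, Os6bglu24, Os9bglu33 and Os11bglu36) lay at or below the floor on all arrays. Whether they changed between lines could therefore not be measured. Of the remaining pair, Os1bglu3 barely exceeded the floor on a single array and Os8bglu28 reached 18.2 at most. The neighbours of Os5bglu22 are among the dim genes, as Os5bglu19 and Os5bglu20 reached 5.54 and 5.55 at most, and Os5bglu21 had no probe. Os1bglu5, the family gene nearest to Os1bglu4, is 213 coding genes away and reached 5.25. Os3bglu7, next to Os3bglu8, had no probe, and whether its RNA also binds the Os3bglu8 probe was not tested.

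The genes most like each of the 3 were sought among the 1458 genes with a symbol or a named synonym and a tested probe, by Pearson r of the log2 values over the 8 arrays, centred within each replicate number. This is a description, since the highest values among many were taken and all genes share the same arrays. For Os3bglu8 they were ABA8OX2 (r = 0.9985), FOR1 (r = 0.987) and ArsM1 (r = 0.981). ABA8OX2, which encodes an enzyme that breaks down abscisic acid, had 20.6 and 34.3 in D62-A/MB, 15.8 and 25.8 in ZS97-A/MB and 15.3 and 23.3 in XQZ-A/MB, against 39.7 and 70.5 in MB. As for Os3bglu8, MB was highest and D62-A/MB next in both replicates, while in replicate 1 ZS97-A/MB and XQZ-A/MB both lay under the floor and have no order. FOR1, an inhibitor of pectin-degrading enzymes, had 138 and 312 in D62-A/MB, 114 and 235 in ZS97-A/MB and 96.0 and 149 in XQZ-A/MB, against 330 and 946 in MB. For Os1bglu4 the most alike were OsrbcS, the small subunit of Rubisco and 1 of the green tissue markers above (r = 0.994), Glup3, an enzyme that processes seed storage proteins (r = 0.992), and the homeobox gene hox14 (r = 0.990). Since all CMS arrays of Os1bglu4 share the floor, these are genes that also set MB apart from CMS arrays nearly equal within a replicate number, such as Glup3 with 73.6 to 82.4 in the CMS lines and 131 and 157 in MB.

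For Os5bglu22 the most alike were OsCASPL1U3 (r = 0.966), Os11N3, which is the sugar transporter gene SWEET14 (r = 0.960), and CYP724B1, an enzyme of brassinosteroid synthesis (r = 0.956). CYP724B1 had 14.8 and 20.9 in D62-A/MB, 10.4 and 10.7 in ZS97-A/MB and 27.7 and 25.3 in XQZ-A/MB, against 13.3 and 9.92 in MB. As with Os5bglu22, both XQZ-A/MB arrays lay above the other 6, and of those only D62-A/MB replicate 2 exceeded the floor. Os11N3 differed far less, with 27.6 and 76.1 in D62-A/MB, 27.3 and 75.0 in ZS97-A/MB and 31.8 and 84.9 in XQZ-A/MB, against 28.6 and 71.8 in MB.

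Genes that make or cut the substrates of such enzymes were looked up as lists. Of 12 named endoglucanases (GLU genes), which cut glucan chains internally, 8 had a probe and 5 of these were tested. For the averaged CMS lines limma called 1 of the 5 lower and 0 higher (1.43% and 0.372% over all tested probes), and their median log2 difference was 0.10, against 0.01 over all tested probes. The gene called was GLU15, with 5.08 and 21.4 in D62-A/MB, 12.7 and 34.5 in ZS97-A/MB and 4.82 and 17.5 in XQZ-A/MB, against 81.2 and 226 in MB (adjusted p = 0.00253). All 6 of its CMS arrays lay below both MB arrays. Without the replicate block, 0 probes were called in this comparison, GLU15 included. With the block and all probes, only 1 probe was called lower. GLU15 was also not called without either ZS97-A/MB array or XQZ-A/MB replicate 2. Of 7 named synthases of mixed-linkage glucan, the wall polymer of grasses, CSLF6 and CSLH1 were tested and 0 were called, with log2 differences of -0.39 (adjusted p = 0.0895) and -0.05 (adjusted p = 0.836).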

How the data were processed

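The deposited intensity values are linear and were made by the authors from a rice gene array before deposition. MAS5 stands in the labels and Robust Multichip Analysis, with values then logged, in the study's methods, and which was used is not settled here. A further deposited table held 98 more rows and no other value (largest difference 0). With 2 arrays per line, their number limits the precision, and nothing beyond the words biological replicate says how far replicates were separate plants.

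Before the log2 step, every value below 16 was raised to 16. Limma 3.58.1 in R 4.3.3 was fitted to the 20416 of 40832 probes with the higher mean (lowest 14.9), with a coefficient per line and the replicate number as a block, and adjusted by Benjamini-Hochberg over these probes. Same-numbered arrays deviated together in 6 of 6 pairs of lines (r 0.728 to 0.840). A call needed at least a 2-fold change with an adjusted p under 0.01, as in the methods. "At least" marks folds in which arrays of the lower side lie under the floor. Tables and figures were made with pandas 2.3.3, numpy 2.4.6 and matplotlib 3.10.9 under Python 3.11.15.

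Of the probes, 15295 lay in 1 gene, 436 in several and 25101 in none, and only the first were named, by RefSeq symbol or synonym. Where a gene had several probes, its brightest by mean stands for it. Genes named are the 3 beta-glucosidases, their family, the 3 most alike genes to each and the called members of 2 lists. GAMYB, OsC4, OsC6 and UDT1 were named as markers, and CSLF6 and CSLH1 to show the tested synthases. The members, lists, markers and the fit were chosen with earlier results of these data known. With the names XQZ-A/MB and D62-A/MB exchanged, 588 of 620 rows of the study's table matched a probe within 0.005 log2 in all 3 lines, and 2 did as labelled. Promoter and protein sequences were not used here.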

Additional observations from a re-analysis of the deposited data

How the results depend on the processing

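The directions of Os3bglu8 and Os1bglu4 against MB, and of Os5bglu22 in XQZ-A/MB, turned under none of the alternatives. But dropping the replicate block or testing all probes cannot move these estimates, nor can leaving out arrays of a line not compared. The mean of probes cannot move Os3bglu8 or Os1bglu4, with 1 probe each. With no floor and 1 added, the difference of the mean of the CMS lines from MB was -2.39 for Os1bglu4 (-1.97 with the floor), and that of XQZ-A/MB from MB was 1.64 for Os5bglu22, which was 0.606 with the mean of its probes (1.21 otherwise). Leaving out 1 array at a time, the mean of the CMS lines differed from MB by values within -2.44 to -2.10 for Os3bglu8 and -2.24 to -1.70 for Os1bglu4. The ends of the Os1bglu4 range are each MB array against the floor. Its CMS values were all set to the floor, so the range is no check of them. Over all alternatives, the adjusted p of Os3bglu8 ran from 0.0700 to 1.0 between D62-A/MB and XQZ-A/MB, from 0.104 to 1.0 between D62-A/MB and ZS97-A/MB and from 0.236 to 1.0 between ZS97-A/MB and XQZ-A/MB.

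With the replicate block, 2 beta-glucosidase genes were called lower in the averaged CMS lines, both of them chosen on this comparison. They numbered 0 without the replicate block, 0 with the block and all probes, 0 without either, 1 by the methods' t-test (Os1bglu4) and 0 to 3 with each array left out (0 without ZS97-A/MB replicate 1, ZS97-A/MB replicate 2, XQZ-A/MB replicate 2 or MB replicate 2, and 1 without XQZ-A/MB replicate 1). The t-test call rests on CMS values all set to the floor. At an adjusted p under 0.05, the count between CMS lines was 1 (Os5bglu22, chosen for such a difference), not 0. Nothing is read from either. Over all probes, the 367 calls of the mean of the CMS lines became 623 at an adjusted p under 0.05, 0 without the replicate block, 1 with the block and all probes, 2 without either, 229 after quantile normalization, 4 by the methods' t-test (beside 1530 at its unadjusted p under 0.05) and 0 to 404 with each array left out. Without 1 array of a line its other array is fitted exactly, and it is assumed to vary like the other lines. Os4bglu16 was called after quantile normalization (adjusted p = 0.00821), with no floor (0.00778), without D62-A/MB replicate 1 (0.00643) and without its replicate 2 (0.00353). Of genes that were not called, the sign turned for Os10bglu34 (-0.891 to 0.385 with each array left out, positive without MB replicate 1), Os4bglu9 (-0.135 to 0.523, negative without MB replicate 2), Os3bglu6 (-0.171 after quantile normalization and -0.186 with no floor) and Os4bglu10 (0.0547 and 0.0243 in the same order). The cause was not tested. Os1bglu4 in the CMS lines, and Os5bglu22 outside XQZ-A/MB, lie under or close to the floor, which limits their folds.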
